A study of Mus musculus with 2 samples.

Results

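Kit-high cells, the 1517 cells with the highest share of UMIs from Kit among 10111 kept leukemia cells, are described here. A kept cell had at least 5000 UMIs (unique molecular identifiers, 1 per captured transcript) from no fewer than 500 genes, and mitochondrial genes gave no more than 10% of them. Kept cells of both libraries were ranked together by Kit UMIs per 1000000 UMIs of the cell, and members were chosen by this share as the highest 15%. They were compared, within each library, with the 3205 kept cells in which no Kit UMI was captured, called Kit-zero cells. The Kit values themselves chose both classes, so they are given as a description and not as a result.

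The cells came from mice transplanted with AE9a leukemia, which is driven by a truncated AML1-ETO fusion, and carried UBCER-Cre and floxed Usp18. Cre fused to the estrogen receptor under the ubiquitin promoter is active wherever the transgene is expressed once tamoxifen is given, and both groups carried it. Sick recipients received oil or tamoxifen, and on day 3 from the first dose GFP+ Lin- c-Kit+ splenocytes were sorted. Each library pooled 3 mice and targeted 8000 cells. The labels give Usp18f/f in one place and Usp18+/f in another, and disagree on whether 1 or both alleles were deleted, so the groups are named by injection. No label assigns a cell to a mouse, so every group is 1 sample, no test between samples was possible, and all intervals below are 95% intervals for counting error only.

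Kit is the receptor tyrosine kinase for stem cell factor. It is carried by hematopoietic stem and progenitor cells and is lost during most differentiation, but mast cells keep it and need it to survive. In AML1-ETO leukemia KIT mutations often accompany the fusion, and signalling from the receptor runs through the PI3 kinase, Ras and STAT pathways. All cells here had passed a gate for c-Kit protein, so a cell with no Kit UMI is a cell whose transcript was not captured and not a cell known to lack the receptor.

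The oil-labelled library held 7774 barcodes and 70239576 UMIs, and the tamoxifen-labelled library 7311 barcodes and 65028672 UMIs. After filtering 5165 and 4946 cells remained. The libraries shared 14 barcodes, 8 of them among kept cells and none among Kit-high cells of both. Usp18, the gene targeted for deletion, was not lower in the tamoxifen-labelled library. In Kit-high cells it stood at 7.54 CPM (counts per 1000000 UMIs) in the oil-labelled library and 13.8 in the tamoxifen-labelled library, a log2 ratio of 0.87 (0.31 to 1.47). The kit reads 3′ ends and the sources used here do not say which exons are removed, so this level does not check the deletion, and both libraries are called by their labels.

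Kit-high cells made up 11.3% (10.5 to 12.2%, exact binomial interval) of kept cells in the oil-labelled library, 584 cells, and 18.9% (17.8 to 19.98%) in the tamoxifen-labelled library, 933 cells. Their median Kit share was 569 CPM in the oil-labelled library and 665 in the other. Summed over the class, Kit stood at 667 CPM (643 to 690) and 773 CPM (753 to 793). The last cell taken had 373.7 Kit UMIs per 1000000, from 5 Kit UMIs among 13378, and the first cell left out had 373.3, from 2 among 5357. Within 10% of the limit lay 181 Kit-high cells above it and 228 other cells below it. The limit cuts a continuous share, and no clustering was run.

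**Figure D1:**
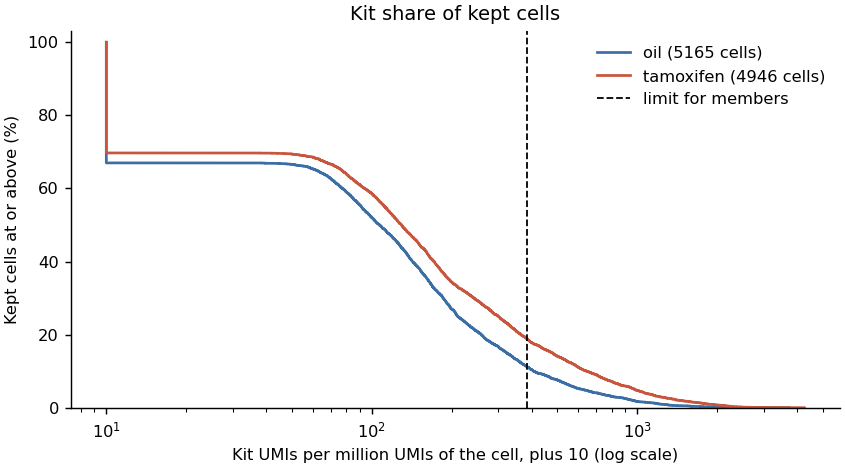
Share of kept cells (vertical axis, percent) at or above a given Kit share (horizontal axis, Kit UMIs per 1000000 UMIs plus 10, log scale) in the oil-labelled library (blue) and the tamoxifen-labelled library (red). At the dashed limit 11.3% and 18.9% of cells remain.

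Single counts behind the share were small. Kit-high cells had 2 to 24 Kit UMIs, with a median of 5, and 56 of them had 2, 292 had 3 and 176 had at least 10. They were also smaller libraries per cell. Their median depth was 6944.5 UMIs in the oil-labelled library and 7009 in the tamoxifen-labelled library, against 10531.5 and 10059 in Kit-zero cells, and they had 2507 and 2420 detected genes against 3112 and 2894. Mitochondrial UMIs took 7.46% and 7.15% in Kit-high cells, against 6.85% and 6.94% in Kit-zero cells.

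To ask whether the ranking carried beyond the counts that made it, the UMIs of every cell were split at random into 2 equal parts, the classes were drawn from 1 part and Kit was read in the other. In the held-out part Kit stood at 417 CPM (393 to 443) in Kit-high cells and 93.4 CPM (88.7 to 98.3) in Kit-zero cells of the oil-labelled library, a ratio of 4.47 (4.13 to 4.84). In the tamoxifen-labelled library the levels were 609 CPM (584 to 635) and 105 CPM (99.8 to 111), a ratio of 5.80 (5.42 to 6.198). Cells with no Kit UMI in the first part thus held Kit in the other, and 37.7% and 39.0% of them had at least 1 held-out Kit UMI. The classes drawn from all UMIs could not be checked this way. Kit-high and Kit-zero cells are read below as cells with more and less captured Kit transcript.

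Genes of mast cells, cytokine receptors and Kit signalling were higher in Kit-high cells, whereas genes of erythroid cells, DNA replication, mitosis and ribosome production were lower. Of 8792 genes with at least 100 UMIs over the compared classes in each library, 1403 were at least 1.5-fold higher in Kit-high cells in both libraries, 16% of the genes measured. A further 923, or 10.5%, were at least 1.5-fold lower in both. The median gene had a log2 ratio of 0.10 and 7672 genes, 87.3%, had the same direction in both libraries. With TMM scaling of the summed counts, which moved the median gene by -0.18, the counts were 868 higher and 1402 lower. The number in each direction thus depends on the scale. Among cells called G1 alone, where 6717 genes were measured, 422 genes were higher and 183 lower.

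Cpa3, the carboxypeptidase of mast cell granules, and Cma1, a mast cell chymase, were far higher in Kit-high cells. Cpa3 stood at 1550 CPM in Kit-high cells and 98.5 in Kit-zero cells of the oil-labelled library, a log2 ratio of 3.98 (3.90 to 4.05). In the tamoxifen-labelled library it stood at 1258 and 67.3 CPM, a log2 ratio of 4.23 (4.14 to 4.32). Both Kit-high values lay above both Kit-zero values. Cma1 stood at 1348 against 99.8 CPM in the oil-labelled library and at 910 against 84.2 CPM in the other, log2 ratios of 3.76 (3.68 to 3.83) and 3.43 (3.35 to 3.52). The transcript was found in 69.7% of Kit-high cells and 28.8% of Kit-zero cells of the oil-labelled library, and in 60.0% and 24.1% of those of the tamoxifen-labelled library. After thinning every cell to 5000 UMIs the shares were 63.7% and 19.5%, and 52.5% and 17.7%. No cell type that should lack Cma1 was captured for comparison, and the part of free RNA in these shares was not tested.

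Chst1, a carbohydrate sulfotransferase, had the highest ratios of all named genes at a low level. It stood at 36.4 against 1.10 CPM and 37.8 against 0.791 CPM, log2 ratios of 5.05 (4.39 to 5.78) and 5.58 (4.78 to 6.504). Cgnl1, a junction protein related to cingulin, followed with log2 ratios of 4.15 and 4.06. Gm2a, the activator of ganglioside breakdown in lysosomes, stood at 64.0 against 3.92 CPM in the oil-labelled library and at 41.5 against 4.63 CPM in the other. Sgk1, a serum- and glucocorticoid-regulated kinase, stood at 268 against 33.6 CPM and 353 against 45.7 CPM, log2 ratios of 2.995 (2.86 to 3.14) and 2.95 (2.83 to 3.07). Trnp1 (3.80 and 3.22), the predicted gene Gm42031 (3.70 and 3.29), the tubulin gene Tubb2b (3.31 and 3.23), the G protein subunit Gng2 (3.52 and 2.86), the inhibitory receptor Lilr4b (3.11 and 3.08) and the adhesion molecule Prtg (2.68 and 3.12) completed the highest named genes, by their log2 ratios in the oil-labelled library and the tamoxifen-labelled library. For each of them both Kit-high values lay above both Kit-zero values.

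**Figure D2:**
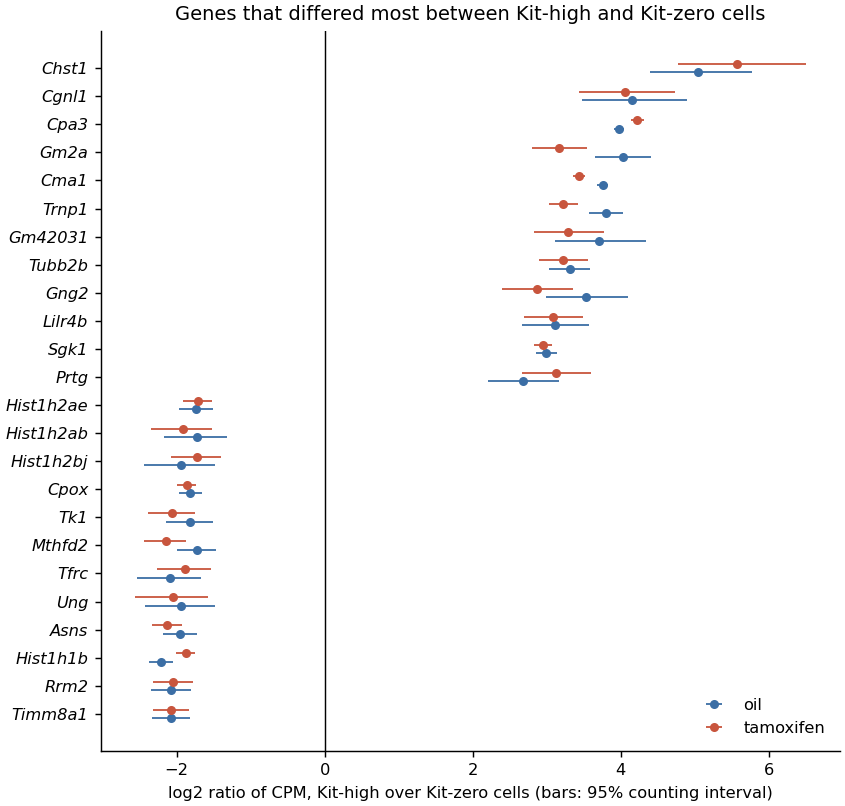
Log2 ratio of CPM in Kit-high over Kit-zero cells (horizontal axis) for the named genes with the highest and the lowest ratios (rows), in the oil-labelled library (blue) and the tamoxifen-labelled library (red). Points are the ratios and bars their 95% counting intervals, from -2.21 for Hist1h1b to 5.58 for Chst1. The genes were chosen for ratios of the same sign in both libraries, by the smaller ratio.

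The mast cell and basophil list was the group with the largest median ratio among lists with at least 7 measured genes. Of its 32 genes 19 were measured, with a median log2 ratio of 1.47. At least 1.5-fold higher in both libraries were 17 of these and none was lower, against 16% and 10.5% of all genes. Fcer1a, the ligand-binding chain of the IgE receptor, stood at 694 against 136 CPM and 550 against 84.5 CPM, log2 ratios of 2.35 (2.28 to 2.43) and 2.70 (2.61 to 2.79). Ms4a2, its beta chain, was less different, with log2 ratios of 1.01 (0.96 to 1.05) and 1.21 (1.17 to 1.25). Enzymes and carriers of mediators were also higher. Hdc, which makes histamine, stood at 1271 against 408 CPM and 1759 against 369 CPM. Tph1, the first enzyme of serotonin synthesis, had log2 ratios of 2.03 and 2.004, and Slc18a2, the vesicular monoamine transporter, 2.01 and 2.34. Srgn, the proteoglycan core of granules, had 1.09 and 1.05. The other 2 measured genes were Gata2 (0.36 and 0.47) and Alox5, a leukotriene enzyme, which was lower in Kit-high cells (-0.49 and -0.36). As a whole the list summed to 16856 against 6210 CPM in the oil-labelled library and 15570 against 5479 CPM in the tamoxifen-labelled library.

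The median of the mast cell list was 0.71 among cells called G1 and 0.90 with Kit-zero cells weighted by depth. Depth and phase moved together and were not separated. Cpa3 then had log2 ratios of 3.25 (3.15 to 3.35) and 3.59 (3.47 to 3.71), Cma1 2.71 (2.61 to 2.81) and 2.55 (2.45 to 2.65), and Fcer1a 1.86 and 2.14. The tryptase Tpsab1, at 1.60 and 1.70 over all phases, had -0.05 (-0.46 to 0.35) and 0.37 (-0.06 to 0.80) in G1. Mcpt1, another mast cell protease, had 1.78 and 1.04 over all phases and 0.22 (0.12 to 0.31) and -0.20 (-0.33 to -0.08) in G1. Thus Cpa3, Cma1 and Fcer1a kept their direction within G1 in both libraries and Mcpt1 did not.

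Kit-high cells were not uniform in mast cell genes. Taking the 15% of kept cells with the highest share of UMIs from mast cell proteases, the same cut as for Kit, 55.8% (51.7 to 59.9%) of Kit-high cells of the oil-labelled library and 41.7% (38.5 to 44.9%) of those of the tamoxifen-labelled library lay inside it, against 8.50% and 6.27% of Kit-zero cells. Cpa3 and Cma1 are among the proteases that chose this protease-high group, so their gap between its inside and outside follows from the choice. In the Kit-high cells inside the group Cpa3 stood at 2795 and 2977 CPM, and in those outside it at 261 and 258 CPM. Fcer1a differed less between these parts, at 946 and 827 CPM inside and 433 and 389 CPM outside, and Il1rl1, the IL-33 receptor of mast cells, stood at 1191 and 1599 CPM inside and 875 and 1086 CPM outside. The Kit-high cells outside the protease-high group still exceeded the Kit-zero cells outside it, in which Cpa3 stood at 58.2 and 36.0 CPM, Fcer1a at 114 and 74.9 CPM and Il1rl1 at 421 and 382 CPM. Without all protease-high cells the median of the mast cell list was 1.18, a comparison chosen after seeing the data. A single Kit-high cell had up to 194 Cpa3 UMIs, with a median of 4 in the oil-labelled library and 2 in the tamoxifen-labelled library.

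Because Kit-high cells had fewer UMIs, the same genes were read at equal depth, in a comparison added after seeing the data. Each cell was thinned to 5000 UMIs and placed by its Kit UMIs into steps of 0, 1, 2, 3 and at least 4. Across these steps Cpa3 stood at 155, 323, 608, 1312 and 2747 CPM in the oil-labelled library and 105, 202, 548, 876 and 1941 CPM in the tamoxifen-labelled library. The level was higher at each step. Cma1, Fcer1a, Ms4a2, Hdc, Il1rl1, Myb, Runx1, Chst1, Srgn and Txnip were likewise higher at every step in both libraries. Itgb1, Hba-a1, Hist1h1b, Cdk1, Lmo2 and Cpox were lower at every step in both. Hba-a1, an alpha globin gene, stood at 2541, 2295, 2192, 1434 and 1227 CPM in the oil-labelled library and 3852, 3262, 2979, 2284 and 2108 CPM in the tamoxifen-labelled library. Without thinning, over the Kit-zero cells and 5 steps of higher Kit share, Myb was higher at every step in both libraries. Cpa3, Cma1, Fcer1a, Il1rl1, Runx1, Chst1, Txnip, Itgb1, Hba-a1, Hist1h1b, Cdk1, Lmo2 and Cpox were not ordered at every step in both. Cpa3 was lower in the first step with a Kit UMI than in Kit-zero cells, at 72.9 against 98.5 CPM and 61.6 against 67.3 CPM, and the cells of that step were deeper, with a median of 14261 and 13886 UMIs. Thinning equalizes the counts but not the cells behind them, since the median depth before thinning was 11792 and 11288.5 UMIs in the first step and 6433 and 6565 in the last, and the share called G1 went from 24.5% and 36.6% to 81.2% and 89.9%.

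**Figure D3:**
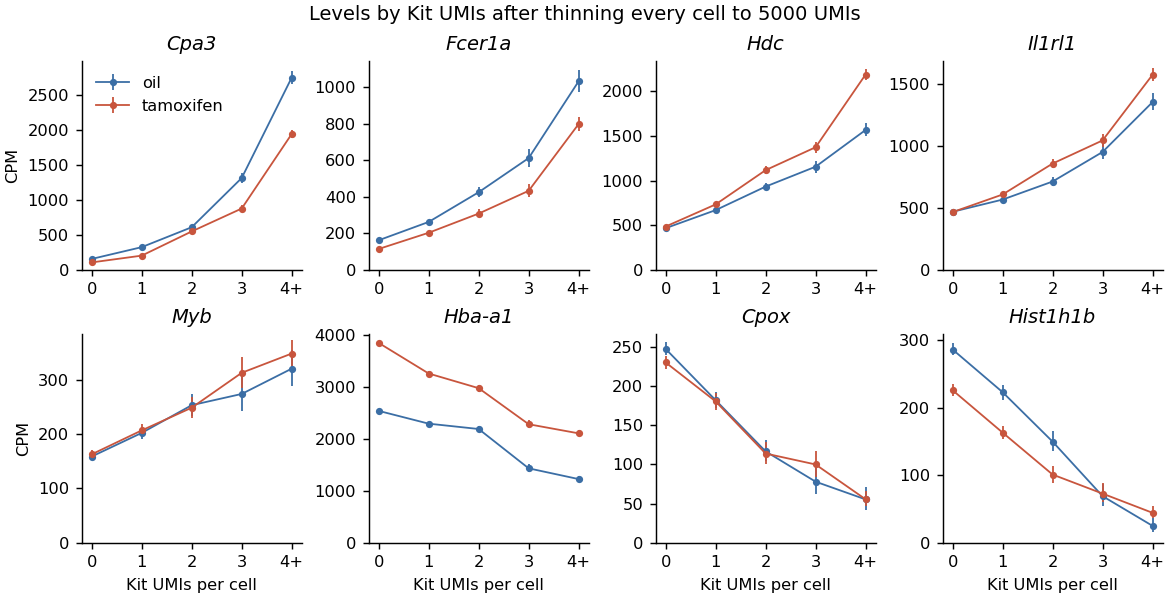
CPM (vertical axes, from 0) of 8 genes against Kit UMIs per cell after every cell was thinned to 5000 UMIs (horizontal axes, 0 to at least 4), in the oil-labelled library (blue) and the tamoxifen-labelled library (red), with 95% Poisson intervals. Cpa3, Fcer1a, Hdc, Il1rl1 and Myb are higher at each step, with Cpa3 at 2747 and 1941 CPM in the last, and Hba-a1, Cpox and Hist1h1b are lower at each step.

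Kit, Cpa3, Fcer1a and Cma1 lie on different chromosomes. In GRCm38 coordinates of the GENCODE annotation, Kit lies at chr5:75574916-75656722 on the plus strand, Cpa3 at chr3:20215620-20242181, Fcer1a at chr1:173221284-173227214 and Cma1 at chr14:55941451-55944675, all but Kit on the minus strand. The 250 bases before their RefSeq starts are printed because GATA factors are established regulators of mast cell genes. They were chosen after the scan, from mast cell genes whose windows hold a match. The windows scanned for Hdc, Myb and Chst1, which rose with Kit at equal depth too, hold none, and those of the 2 starts of Il1rl1 hold 2 and 1. Capitals mark the letters GATAA or, on the other strand, TTATC. The windows are chr5:75574737-75574986 for Kit, chr3:20242182-20242431 for Cpa3, chr1:173227230-173227479 for Fcer1a and chr14:55944676-55944925 for Cma1, all in GRCm38.p6 and 5′ to 3′ on the strand of the gene.
Kit: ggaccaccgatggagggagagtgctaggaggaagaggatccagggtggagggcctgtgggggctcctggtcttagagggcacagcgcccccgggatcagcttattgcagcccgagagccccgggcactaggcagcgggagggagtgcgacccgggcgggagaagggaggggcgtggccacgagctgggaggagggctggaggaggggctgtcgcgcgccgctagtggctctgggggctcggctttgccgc
Cpa3: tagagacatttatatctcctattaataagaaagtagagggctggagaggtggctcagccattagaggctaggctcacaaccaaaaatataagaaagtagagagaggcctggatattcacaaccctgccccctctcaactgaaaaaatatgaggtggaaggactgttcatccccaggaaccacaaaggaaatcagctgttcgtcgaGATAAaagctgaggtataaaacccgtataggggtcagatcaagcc
Fcer1a: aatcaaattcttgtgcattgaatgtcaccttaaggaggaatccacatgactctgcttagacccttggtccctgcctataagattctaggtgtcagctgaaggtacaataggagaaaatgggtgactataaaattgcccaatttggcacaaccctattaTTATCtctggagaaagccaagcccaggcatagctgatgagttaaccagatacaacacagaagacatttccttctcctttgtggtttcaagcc
Cma1: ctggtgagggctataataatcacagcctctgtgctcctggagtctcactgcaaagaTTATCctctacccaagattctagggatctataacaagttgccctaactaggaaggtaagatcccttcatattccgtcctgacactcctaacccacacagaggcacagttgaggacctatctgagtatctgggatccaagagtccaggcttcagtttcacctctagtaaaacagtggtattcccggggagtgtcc
The windows of Cpa3, Fcer1a and Cma1 each hold 1 such match and that of Kit holds none. GATAA on either strand occurs in 22.6% of all 32851 RefSeq windows of this length, in 14.8% of those of measured genes, in 17.3% of those of genes higher in Kit-high cells and in 14.0% of those of genes lower there. TGTGGT, the core that RUNX factors bind, occurs in 14.0% of all windows, 10.5% of those of measured genes, 11.3% of those of higher genes and 10.7% of those of lower genes. CANNTG, the letters read by basic helix-loop-helix factors, occurs in 66.2%, 55.4%, 59.8% and 54.9%, and TCANGTG, the longer form read by MITF, which overlaps it, in 12.2%, 10.9%, 11.0% and 10.3%. A match describes letters and not binding.

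Among receptors for cytokines, 14 of 31 listed genes were measured, with a median log2 ratio of 0.80. At least 1.5-fold higher in both libraries were 9 of these and none was lower, against 16% and 10.5% of all genes. Il1rl1 stood at 1036 against 437 CPM and 1275 against 399 CPM, log2 ratios of 1.24 (1.19 to 1.30) and 1.68 (1.63 to 1.72). Il2rg, the common gamma chain, had 1.77 and 1.88, and Ifngr1, a chain of the interferon gamma receptor, 1.39 and 1.67. Csf2rb, the beta chain shared by the receptors for IL-3, IL-5 and GM-CSF, stood at 718 against 460 CPM and 693 against 441 CPM, but in G1 it was lower in Kit-high cells, with log2 ratios of -0.56 (-0.62 to -0.49) and -0.20 (-0.26 to -0.14). Epor, the erythropoietin receptor, went the other way, with log2 ratios of -0.49 and -0.51. Receptors that mark other lineages were at or near 0. Pdgfra, which neighbours Kit, had 0 UMIs in both classes of both libraries and Kdr at most 0.13 CPM.

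Of 56 genes of Kit signalling 47 were measured, with a median log2 ratio of 0.48 against 0.10 for all genes. At least 1.5-fold higher were 21 of these and none was lower, against 16% and 10.5% of all genes. Adaptors of the linker type led. Lat2 stood at 40.1 against 10.3 CPM and 34.4 against 11.0 CPM, and Grap2 at 160 against 56.8 CPM and 187 against 58.7 CPM. Negative regulators of the receptor were among the higher genes too, with log2 ratios of 1.35 and 1.57 for the ubiquitin ligase Cblb, 1.03 and 1.57 for Socs1, 1.16 and 1.18 for Sh2b3 and 0.86 and 0.97 for Inpp5d, the phosphatase SHIP1. The kinase genes Lyn (0.83 and 0.72) and Pik3r1 (0.99 and 1.01), the latter the regulatory subunit of PI3 kinase, were also higher. The 3 lowest measured genes of the list were Hras at -0.58 and -0.43, Map2k2 at -0.34 and -0.22 and Ptpn11 at -0.25 (-0.51 to 0.02) and -0.14 (-0.35 to 0.08). Among cells called G1 the median of the list was 0.35.

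The list of transcription factors held to regulate Kit or partner AML1-ETO was mixed. Of 24 measured genes 6 were at least 1.5-fold higher and 1 was lower, against 16% and 10.5% of all genes. The median log2 ratio was 0.42, against 0.10 for all genes. Mitf, the mast cell and melanocyte factor that acts with Kit, stood at 24.6 against 10.8 CPM and 20.4 against 7.73 CPM, log2 ratios of 1.19 (0.85 to 1.53) and 1.40 (1.05 to 1.75). Zeb2 had 1.32 and 1.41, and Myb, a factor of progenitor cells, 0.9996 (0.90 to 1.09) and 1.33 (1.25 to 1.42). Runx1t1, the ETO gene, had 1.37 and 1.48. The paper expressed AE9a from an MSCV-IRES-GFP retrovirus, and whether any of its 3′ reads are counted as Runx1t1 was not tested. Runx1 had 0.42 and 0.52 and Gata2 0.36 and 0.47. Gata1 was slightly lower, at -0.19 (-0.36 to -0.03) and -0.24 (-0.38 to -0.11), and Lmo2, a scaffold of blood stem cell and erythroid complexes, stood at 80.1 against 145 CPM and 59.9 against 140 CPM. In G1 the ratio of Mitf was 0.36 (-0.08 to 0.79) and 0.51 (0.09 to 0.95), that of Runx1 -0.05 and 0.15, that of Myb 0.78 and 1.09 and that of Lmo2 -0.75 and -0.89.

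Erythroid genes were lower in Kit-high cells. Of 29 measured genes 15 were at least 1.5-fold lower in both libraries and none was higher, with a median log2 ratio of -0.85. Over all genes 10.5% were lower and 16% higher. Tfrc, the transferrin receptor, stood at 10.6 against 44.9 CPM and 9.78 against 36.3 CPM. Cpox, an enzyme of heme synthesis, stood at 79.1 against 278 CPM and 73.7 against 268 CPM, log2 ratios of -1.81 (-1.97 to -1.66) and -1.86 (-1.995 to -1.74). The globin gene Hba-a1 stood at 1517 against 2634 CPM and 2130 against 4045 CPM, and Hbb-bs had -1.46 and -1.67. Hba-a1 has a near-identical copy, Hba-a2, so its own share of reads is uncertain. Nfe2 (0.50 and 0.60), Fech (0.19 and 0.29) and Kel (0.12 and 0.13) were above even. In G1 Nfe2 had -0.16 (-0.45 to 0.13) and 0.07 (-0.20 to 0.33), and a mean of -0.17 with depth weighting in G1. Within G1 the median of the list was -0.84, that is, the difference was as large as over all phases, and Hba-a1 had log2 ratios of -1.65 and -1.36. Among protease-high cells the Kit-zero cells summed to 23853 and 31209 CPM of erythroid genes and the Kit-high cells to 7399 and 8364 CPM.

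Megakaryocyte genes, of another lineage close to these, were few. Of 20 listed genes 7 were measured and 5 were at least 1.5-fold higher, against 16% of all genes. Itga2b, the platelet integrin alpha IIb, led the list at 16.2 against 3.56 CPM and 22.0 against 4.81 CPM. In G1 the median of these 7 was -0.04. Of 24 genes of granulocytes and monocytes only Fcgr3, Cd68 and Ms4a3 were measured, and all 3 were higher over all phases. In G1 Fcgr3 had 1.31 and 1.42, and Cd68 0.29 (-0.51 to 1.08) and 0.28 (-0.41 to 0.99). Ms4a3 had 0.85 (-0.15 to 1.87) and 1.36 (0.55 to 2.25) there. Fcgr3, an Fc receptor that mast cells also carry, stood at 130 against 27.9 CPM and 121 against 25.1 CPM. Mpo, Elane, S100a8, S100a9 and Ly6g had 0 UMIs in Kit-high cells. Summed lymphoid genes stood at 1.51 and 1.47 CPM in Kit-high cells and 0.47 and 0.49 in Kit-zero cells, and endothelial and stromal genes at 3.23 and 3.08 against 2.35 and 2.56.

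Stem and progenitor genes gave a partial picture, since 9 of 28 were measured. Beside 16% of all genes higher and 10.5% lower, 4 of the 9 were higher and none was lower. Besides Myb these were Txnip, a redox regulator high in resting stem cells, at 1349 against 398 CPM and 1443 against 498 CPM, Myct1 (1.49 and 1.20) and Cd48 (0.87 and 0.89). Flt3, Hoxa9 and Mecom had 0 UMIs in Kit-high cells and Cd34 had 1 UMI in the oil-labelled library and 5 in the tamoxifen-labelled library. Cd34 stood at 0.22 and 0.67 CPM there and at 0.05 and 0.06 CPM in Kit-zero cells.

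**Figure D4:**
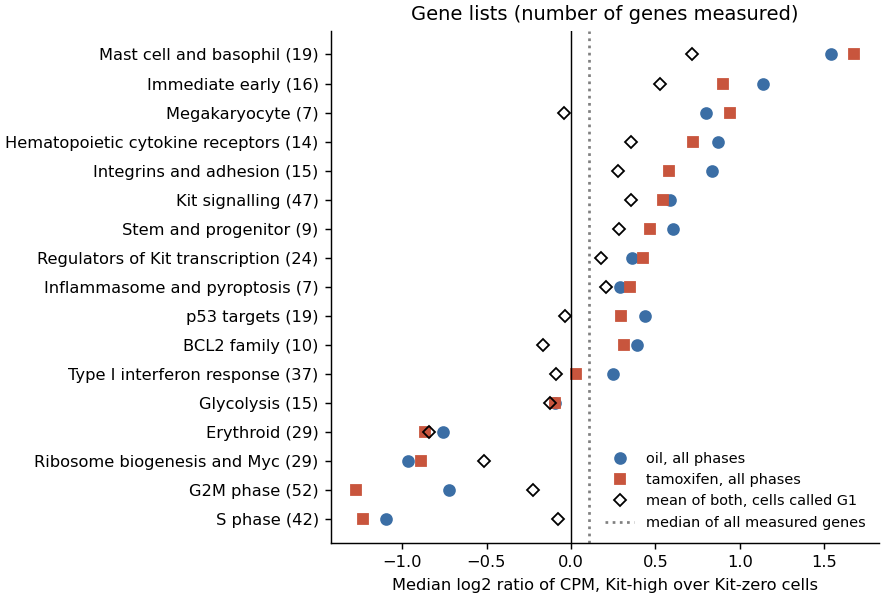
Median log2 ratio of CPM in Kit-high over Kit-zero cells (horizontal axis) for each gene list with at least 7 measured genes (rows, number measured in parentheses), in the oil-labelled library (circles), in the tamoxifen-labelled library (squares) and, as the mean of both libraries, among cells called G1 (diamonds). The dotted line is the median of all genes at 0.10. Mast cell genes lie farthest right in both libraries. Farthest left are replication (S phase) genes in the oil-labelled library, at -1.09, and mitosis (G2M) genes in the tamoxifen-labelled library, at -1.27. In the oil-labelled library ribosome biogenesis (-0.97) and erythroid genes (-0.76) lie left of mitosis genes (-0.72). The erythroid list is at -0.84 in G1. The replication and mitosis lists made the phase calls, so their diamonds follow from the selection.

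Kit-high cells were mostly in G1 by their phase calls, which score each cell, thinned to 5000 UMIs, on S and G2M genes. In the oil-labelled library 74.3% (70.6 to 77.8%) of Kit-high cells and 29.4% (27.2 to 31.6%) of Kit-zero cells were called G1. In the tamoxifen-labelled library the shares were 84.99% (82.5 to 87.2%) and 39.9% (37.4 to 42.4%). S phase took 8.05% and 4.50% of Kit-high cells against 25.2% and 16.0% of Kit-zero cells. Read the other way, 24.9% and 32.3% of all G1 cells were Kit-high, against 3.84% and 5.03% of S cells and 4.69% and 5.91% of G2M cells. G1 cells had a median of 7377 and 7678 UMIs and S cells 12708 and 13505, so phase and depth moved together. With Kit-zero cells weighted to the depth of Kit-high cells the G1 shares differed by 26.3 and 28.3 percentage points, against 44.9 and 45.1 unweighted.

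The S and G2M genes made the calls, so their direction is not a separate result, and they are given by gene. Of 42 S phase genes 33 were at least 1.5-fold lower in both libraries and none was higher, with a median log2 ratio of -1.20. Over all genes 10.5% were lower and 16% higher. Rrm2, a subunit of ribonucleotide reductase, stood at 24.99 against 105 CPM and 17.1 against 71.0 CPM, and Mcm5 of the replication helicase had log2 ratios of -1.51 and -1.82. Of 52 G2M genes 34 were lower and none higher, with a median of -0.99. Cdk1 had -0.97 and -1.82, Birc5, or survivin, -1.16 and -2.09, and the proliferation marker Mki67 -0.90 and -1.41. Some members of both lists were even or higher, such as Kif23 (0.40 and 0.12), Rfc2 (0.21 and 0.15) and Blm (0.21 and 0.06), and Rfc2 and Blm were below 0 under TMM scaling. Histone genes of the replication cluster were lower as well. Hist1h1b, a linker histone, stood at 72.8 against 338 CPM and 75.8 against 278 CPM, and Hist1h2ae, Hist1h2ab and Hist1h2bj lay between -1.71 and -1.94.

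Among other named genes with low ratios, Timm8a1, a chaperone of mitochondrial import, stood at 28.4 against 120 CPM and 21.4 against 90.2 CPM, log2 ratios of -2.07 in both. Asns, asparagine synthetase, had -1.95 and -2.13 and Mthfd2, a mitochondrial folate enzyme, -1.73 and -2.15. In G1 Timm8a1 had -1.22 and -1.21, Asns -1.57 and -1.59 and Mthfd2 -1.18 and -1.48. The nucleotide enzymes Tk1 (-1.82 and -2.06) and Ung (-1.94 and -2.05), the second of which removes uracil from DNA, were low together with the S phase genes.

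Ribosome production was lower in Kit-high cells in both libraries. Of 29 measured genes of ribosome biogenesis and MYC targets 22 were at least 1.5-fold lower and none higher, against 10.5% and 16% of all genes. The median of the list was -0.92 over all phases and -0.52 in G1. Odc1, the first enzyme of polyamine synthesis, stood at 84.7 against 229 CPM and 60.5 against 231 CPM. Nolc1, a nucleolar chaperone, had -1.41 and -1.52, Srm, spermidine synthase, -1.35 and -1.37, and the abundant nucleolar gene Npm1 -0.90 and -0.69. Myc itself stood at 24.3 against 54.6 CPM in the oil-labelled library and at 30.7 against 42.4 CPM in the tamoxifen-labelled library, log2 ratios of -1.16 (-1.46 to -0.88) and -0.47 (-0.69 to -0.25). Within G1 these were -1.14 (-1.59 to -0.71) and -0.04 (-0.38 to 0.29).

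Immediate early genes, which many stimuli raise within minutes, were higher. Of 16 measured genes 12 were at least 1.5-fold higher and none lower, against 16% and 10.5% of all genes. The median of the list was 0.97 over all phases and 0.53 in G1. Egr1 stood at 68.9 against 17.2 CPM and 55.0 against 10.3 CPM, Klf2 at 184 against 42.7 CPM and 98.4 against 31.5 CPM, and Fos at 115 against 43.0 CPM and 44.3 against 14.8 CPM. Klf2 had log2 ratios of 0.58 (0.42 to 0.74) and 0.20 (0.02 to 0.39) in G1, and its mean ratio was -0.091 with depth weighting in G1. Myc, which is also on this list, was lower.

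Integrins and adhesion genes leaned higher, with 7 of 15 measured genes at least 1.5-fold higher and none lower and a median of 0.64. The shares over all genes were 16% higher and 10.5% lower. Itga9 stood at 57.7 against 20.03 CPM and 52.1 against 17.0 CPM and Itgal, of the LFA-1 integrin, had log2 ratios of 1.24 and 1.19. The chains of VLA-4, which holds blood cells to VCAM-1 and fibronectin, went apart. Itga4 stood at 262 against 176 CPM and 233 against 168 CPM, log2 ratios of 0.57 (0.48 to 0.67) and 0.48 (0.39 to 0.56). In G1 these were 0.19 (0.05 to 0.32) and 0.15 (0.04 to 0.27). Itgb1 stood at 154 against 185 CPM and 143 against 178 CPM, log2 ratios of -0.27 (-0.38 to -0.15) and -0.31 (-0.42 to -0.21). By their summed share 21.4% and 17.6% of Kit-high cells lay in the highest 15% of kept cells for VLA-4, against 14.0% and 12.5% of Kit-zero cells. Kit-high cells had fewer UMIs, and these percentages were not weighted for depth.

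The remaining lists showed little, beside 16% of all genes higher and 10.5% lower in both libraries. Of 10 measured BCL2 family genes none reached 1.5-fold in both libraries. Of 19 measured p53 targets 5 were higher and 1, Aen, was lower. Among 15 glycolysis genes the kinase Pkm was higher (0.80 and 0.68) and the transporters Slc2a1 (-0.78 and -0.97) and Slc16a1 (-0.83 and -0.71) were lower. Of 7 measured inflammasome and pyroptosis genes 1 was lower, Hmgb1, at 963 against 1471 CPM and 729 against 1364 CPM. Gsdme, a gasdermin, had 0.46 and 0.35 over all phases, and 0.05 (-0.35 to 0.43) and 0.25 (-0.11 to 0.63) in G1. Of 4 measured sex-linked genes, which could show a skew of mice in the pools, Kdm5d was higher at 0.66 and 0.63 over all phases. Within G1 it had 0.13 (-0.44 to 0.69) and 0.09 (-0.32 to 0.50). Eif2s3y was even at -0.04 in both libraries over all phases.

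Of 37 measured type I interferon response genes 6 were at least 1.5-fold higher in Kit-high cells and 2 lower, against 16% and 10.5% of all genes. The median log2 ratio was 0.17, against 0.10 for all genes, and its sign turned with the processing. It was -0.01 under TMM scaling, -0.17 with Kit-zero cells weighted by depth and -0.38 with that weighting among cells called G1. Parp14 had log2 ratios of 0.84 in both libraries and Trim30a 1.22 and 0.74. In G1 Parp14 had 0.40 (0.08 to 0.71) and 0.44 (0.21 to 0.67), and Trim30a 0.20 (-0.25 to 0.65) and 0.31 (-0.02 to 0.65). Isg15, the ubiquitin-like protein that USP18 removes, stood at 37.3 against 61.4 CPM and 74.7 against 149 CPM, log2 ratios of -0.72 (-0.96 to -0.49) and -0.99 (-1.13 to -0.86), and the antiviral membrane protein gene Ifitm3 had -0.95 and -1.26. In G1 Isg15 had -1.77 (-2.11 to -1.44) and -1.56 (-1.71 to -1.40). Irf7, the master factor of interferon induction, was close to even over all phases, at 0.25 (-0.22 to 0.70) and 0.22 (-0.01 to 0.45). In G1 it was lower in Kit-high cells, at -0.75 (-1.37 to -0.16) and -0.61 (-0.88 to -0.34). Kit-high cells made up 18.3% and 21.3% of the cells in the highest 15% of all kept cells for this list. Of all kept cells they made up 11.3% and 18.9%. In the oil-labelled library 12.7% of Kit-high cells and 8.09% of Kit-zero cells lay in that group. In the tamoxifen-labelled library the shares were close, at 25.4% and 24.6%.

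Between the 2 libraries, with 1 pool each, Kit-high cells differed at fewer genes. Of 8052 genes with at least 100 UMIs in Kit-high cells 129, or 1.6%, were at least 1.5-fold higher in the tamoxifen-labelled library and 284, or 3.53%, were lower. In Kit-zero cells the counts were 151 (1.64%) and 204 (2.21%) of 9220. Classes ranked over both libraries differ in size between them, and the pool of mice and the injection cannot be told apart with 1 library a group.

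Interferon genes were higher in Kit-high cells of the tamoxifen-labelled library. Of the 37 measured genes 9 were at least 1.5-fold higher there than in the oil-labelled library, with a median log2 ratio of 0.40. In Kit-zero cells 21 of the 37 were, with a median of 0.66. The shares of all genes that were higher were 1.6% in Kit-high cells and 1.64% in Kit-zero cells. Rtp4, a chaperone of receptors induced by interferon, went from 4.95 to 26.4 CPM in Kit-high cells, a log2 ratio of 2.41 (1.79 to 3.10), and by 2.50 (2.20 to 2.82) in Kit-zero cells. Irf7 went from 11.2 to 31.6 CPM, 1.496 (1.06 to 1.959) against 1.53 (1.27 to 1.79), and Isg15 from 37.3 to 74.7 CPM, 1.004 (0.76 to 1.26) against 1.28 (1.18 to 1.38). For Ifit1 only 2 UMIs were counted in Kit-high cells of the oil-labelled library, and its log2 ratio of 3.77 has an interval from 1.84 to 6.86. Usp18 itself had 0.87 in Kit-high cells and 1.60 (1.30 to 1.91) in Kit-zero cells, a difference of -0.73 (-1.36 to -0.10) by counting error. Among cells called G1 the order of the classes turned for Rtp4, Irf7, Isg15, Parp14 and Trim30a, with overlapping intervals. Rtp4 had 2.74 in Kit-high cells and 2.299 in Kit-zero cells there, Irf7 1.64 and 1.495, and Isg15 1.43 and 1.22. Usp18, at 1.04 and 1.94, and the interferon genes Ifit2, Ifitm3 and Tor3a still had the lower ratio in Kit-high cells.

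Immediate early genes were lower in the tamoxifen-labelled library in both classes. Of 16 measured genes 10 were at least 1.5-fold lower in Kit-high cells and 6 in Kit-zero cells. The shares of all genes that were lower were 3.53% and 2.21%. Fosb went from 135 to 33.5 CPM in Kit-high cells, a log2 ratio of -2.01 (-2.23 to -1.80), Jun from 602 to 237 CPM and Zfp36, which destabilizes cytokine mRNAs, from 117 to 40.8 CPM. The corresponding log2 ratios of Fosb, Jun and Zfp36 in Kit-zero cells were -1.63, -1.07 and -0.91. Among mast cell genes Mcpt1 went from 484 to 164 CPM, -1.56 (-1.66 to -1.46), and Cpa3 by -0.30 (-0.35 to -0.26), whereas Hdc was higher by 0.47 (0.42 to 0.51) and Il1rl1 by 0.30 (0.25 to 0.35). Anxa2, an annexin of membranes, went from 204 to 83.2 CPM. These values are of Kit-high cells. In Kit-zero cells Cpa3 had -0.55 (-0.66 to -0.44). Among cells called G1 Mcpt1 had -1.67 in Kit-high and -1.25 in Kit-zero cells, and Anxa2 -1.28 and -1.29. Hdc had 0.37 and -0.37 there, and Il1rl1 0.22 and -0.24. Ppy, the pancreatic polypeptide gene, went from 2.15 to 21.3 CPM in Kit-high cells and from 26.6 to 45.2 CPM in Kit-zero cells.

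Mitosis genes were lower between the libraries in Kit-high cells more than in Kit-zero cells. Of 52 measured G2M genes 28 were at least 1.5-fold lower in Kit-high cells of the tamoxifen-labelled library and 1 was higher, against 0 and 0 in Kit-zero cells. Of 42 S phase genes 17 were lower in Kit-high cells and 5 in Kit-zero cells. The shares of all genes that were lower were 3.53% and 2.21%. Birc5 went from 88.8 to 39.9 CPM in Kit-high cells and from 199 to 170 CPM in Kit-zero cells, log2 ratios of -1.15 and -0.23 and a difference of -0.92 (-1.15 to -0.70). Among genes with at least 20 CPM in each of the 4 sums, Birc5 and then Cdk1, Cdc20, Ube2c and Cenpf, between -0.80 and -0.85, had the lowest difference. Within the same limit Nup153 (0.93), Myc (0.70), Hes1 (0.68), C5ar2 (0.65) and Ipo7 (0.63) had the highest, these being log2 differences between the 2 ratios. Below that limit Ppy (2.54) and Gm12840 (1.53) were higher, the first from a sum of 2.15 CPM in Kit-high cells of the oil-labelled library. The G1 share of Kit-high cells was 74.3% in the oil-labelled library and 84.99% in the other, and that of Kit-zero cells 29.4% and 39.9%. The G2M shares were 17.6% and 10.5% of Kit-high cells and 45.4% and 44.1% of Kit-zero cells. Among Kit-high cells called G1 the ratios between libraries were -0.61 (-1.45 to 0.25) for Birc5 and 0.33 (-0.68 to 1.44) for Cdk1. Cdc20 had -0.33, Ube2c 0.03 and Cenpf 0.35 there, with intervals on both sides of 0. G2M genes made the phase calls, so their levels in G1 follow in part from the selection.

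**Figure D5:**
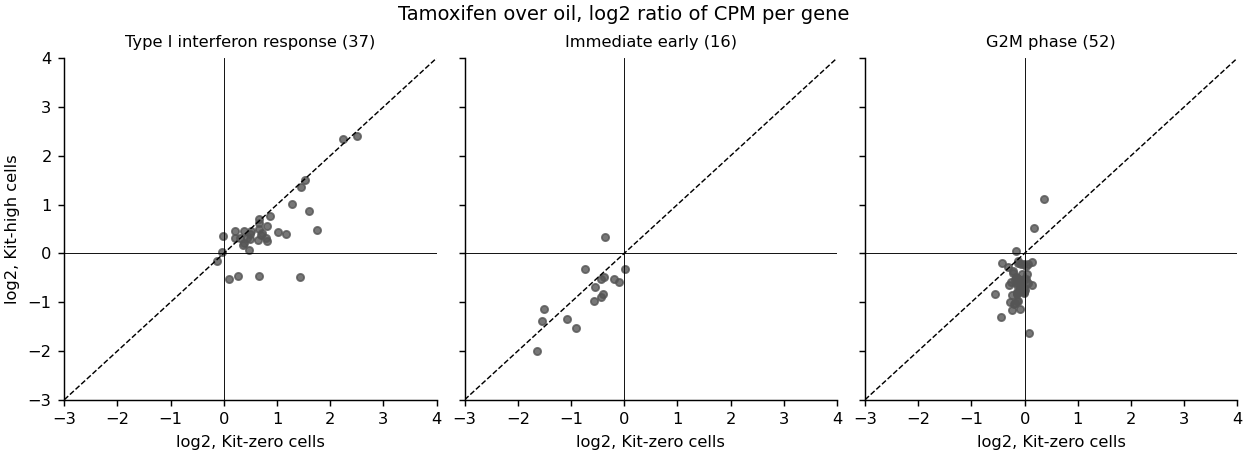
Log2 ratio of CPM in the tamoxifen-labelled library over that in the oil-labelled library for each measured gene of 3 lists, in Kit-zero cells (horizontal axes) and Kit-high cells (vertical axes). The dashed line marks equal ratios. Interferon genes lie mostly right of and above 0 and G2M genes mostly below 0 in Kit-high cells, from -1.64 for Cdc25c to 1.10 for Psrc1.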

How the data were processed

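A pair of pooled 10x 3′ libraries were analysed. The deposited values are raw UMI counts per gene and barcode, which the authors made with Cell Ranger (3.0.2 per the file headers) on mm10. The study also names Seurat. From the counts, cells were filtered, ranked by Kit share and summed per library and class as described. CPM are counts per 1000000 UMIs of the class. Log2 ratios carry exact conditional binomial intervals, levels exact Poisson intervals and shares exact Clopper-Pearson intervals, all at 95% and for counting error only. A gene was measured with at least 100 UMIs in each library over the classes compared, and called at 1.5-fold. A count of 3 or fewer in both classes gave no ratio. Phases were called with scanpy 1.11.5 on cells thinned to 5000 UMIs, with the S and G2M lists also described here. No doublets were removed.

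Members, lists and tests were chosen with earlier results of these data known. Named genes were the 12 highest and 12 lowest by the smaller ratio of both libraries (at least 20 CPM), 3 from each end of every list, the 8 highest and 8 lowest between libraries, the 5 highest and 5 lowest differences, and a short set of genes of the study. Other genes named were chosen after their values were seen. Of 31053 gene IDs, 31011 were placed by GENCODE M21. Scripts were tested on simulated counts. Software was scipy 1.17.1, pandas 2.3.3, numpy 2.4.6, Python 3.11.15, R 4.3.3, edgeR 4.0.16 (TMM) and DESeq2 1.42.0 (median ratio), the last pair for scaling only.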

Additional observations from a re-analysis of the deposited data

Results flagged for a closer look

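The lists held 4 genes that had opposite log2 ratios of Kit-high over Kit-zero cells in the libraries, with counting intervals on either side of 0. Ifi27l2a, an interferon-induced gene, had 0.83 in the oil-labelled library and -1.08 in the tamoxifen-labelled library. Xaf1, also induced by interferon, had 0.69 and -0.58. The glycolysis genes Eno1 (0.18 and -0.095) and Ldha (-0.13 and 0.064) differed by less. With 1 library a group these differences were not tested.

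Kit was also read in barcodes that the filter left out. Among barcodes under 5000 UMIs with at most 10% mitochondrial UMIs it stood at 544 CPM (525 to 563) over 1764 barcodes of the oil-labelled library and at 653 CPM (632 to 675) over 1558 of the tamoxifen-labelled library, a log2 ratio of 0.26 (0.20 to 0.33). This difference was not tested either.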

How the results depend on the processing

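No paired analysis was possible because the oil and tamoxifen groups have 1 library apiece. Depth limits genes of low level, and 1 pool a group leaves the spread between mice unknown. Medians are of log2 ratios of Kit-high over Kit-zero cells, and alternatives named as added were chosen after seeing the data. The causes of these shifts were not tested.

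With at least 8000 UMIs a cell, 704 genes were higher and 157 lower, with medians of 0.66 for cytokine receptors, 1.34 mast cell, -0.47 erythroid, 1.80 granulocyte, 0.29 stem, -0.50 S phase, -0.28 G2M, 0.72 immediate early, -0.019 p53, 0.51 integrins, 0.038 glycolysis and -0.42 ribosome biogenesis, and Cenpf at 0.12. With at least 3000 UMIs they were 0.99 cytokine receptors, 1.67 mast cell, -1.04 erythroid, 0.89 stem, -1.75 S phase, -1.82 G2M, 1.21 immediate early, 0.93 integrins, -0.23 glycolysis and -1.31 ribosome biogenesis. Thinned to 5000 UMIs, 856 genes were higher and 578 lower, with 1.15 mast cell, -0.61 erythroid, 0.41 megakaryocyte, 1.79 granulocyte, -0.92 S phase and 0.49 integrins, and G1 shares differed by 37.4 and 39.9 points.

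In G1 only, 422 genes were higher and 183 lower, with 0.18 Kit regulators, 0.36 cytokine receptors, 0.71 mast cell, -0.039 megakaryocyte, 0.28 stem, -0.075 S phase, -0.23 G2M, 0.53 immediate early, -0.16 BCL2, -0.034 p53, 0.28 integrins, -0.52 ribosome biogenesis and 0.079 sex-linked. Reversed there were Tppp3 -0.11, Zrsr1 -0.056, Nfe2 -0.047, Il4ra -0.27, F2r -0.13, Adgrg1 -0.10, Nup153 0.028, Wdr12 0.23, Hist1h2ae 0.16 and Hist1h2ab 0.19. With Kit-zero cells weighted by depth, 710 were higher and 382 lower, with 0.25 Kit regulators, 0.49 cytokine receptors, 0.90 mast cell, 0.32 stem, -0.17 interferon, -0.67 S phase, -0.50 G2M, 0.58 immediate early, 0.082 p53, 0.46 integrins, -0.53 ribosome biogenesis, Il4ra -0.090, Cenpf 0.024 and G1 differences of 26.3 and 28.3 points. With both (added), 477 were higher and 227 lower, with 0.25 Kit signalling, 0.11 Kit regulators, 0.23 cytokine receptors, 0.64 mast cell, -0.96 erythroid, -0.012 megakaryocyte, -0.38 interferon, -0.11 S phase, -0.26 G2M, 0.32 immediate early, -0.15 BCL2, -0.043 p53, 0.24 integrins, -0.35 ribosome biogenesis and 0.027 sex-linked. Reversed were Klf2 -0.091, Mcpt1 -0.37, Tppp3 -0.43, F2rl2 -0.012, Plek -0.23, Mir142hg -0.0065, Zrsr1 -0.11, Nfe2 -0.17, Il4ra -0.43, Ier5 -0.014, F2r -0.20, Adgrg1 -0.19, Wdr12 0.30, Ipo7 0.013 and Hist1h2ae 0.22.

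TMM scaling gave 868 higher and 1402 lower, with 0.30 Kit signalling, 0.24 Kit regulators, 0.62 cytokine receptors, 1.29 mast cell, -1.02 erythroid, 0.28 stem, 0.79 immediate early, 0.46 integrins, -0.21 glycolysis, Rfc2 -0.000768 and Blm -0.041. Median ratio scaling, which moved the median gene by -0.16, gave 920 higher and 1343 lower, with 0.32, 0.26, 0.64, 1.31, -1.01, 0.30, 0.81, 0.48 and -0.19 for the same lists and Blm -0.022. With at least 500 UMIs a gene, 724 were higher, megakaryocyte was 0.34, granulocyte 2.24 and the interferon ratio between libraries in Kit-zero cells 0.41. The granulocyte median was 2.24 at 20 UMIs a gene and 2.21 without the 6% of cells with most UMIs.

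Taking the highest 25%, 466 were lower, with 1.20 mast cell, 0.33 stem, -0.79 S phase, -0.62 G2M, 0.73 immediate early, 0.045 glycolysis, -0.59 ribosome biogenesis, G1 differences of 35.2 and 36.8 points and held-out Kit ratios of 3.35 and 4.50. Taking the highest 10% gave 1.66 mast cell, 2.49 granulocyte, -1.51 S phase, -1.43 G2M, 1.26 immediate early, 53.6 and 49.8 points and ratios of 6.02 and 7.05. Ranking within a library gave 48.8 points in the tamoxifen-labelled library and ratios of 4.09 and 6.49. Equal weight per cell gave 0.64 for cytokine receptors, and all other kept cells as the comparison gave -0.52 for erythroid genes. Outside protease-high cells (added), 569 were lower, with 1.18 mast cell, 2.14 granulocyte, 0.31 stem, -0.91 S phase, 0.044 p53 and 0.029 glycolysis. Without shared barcodes (added) 1403 genes were higher and 920 lower.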
